A study of Mus musculus with 15 samples.

Results

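The T cell receptor (TCR) repertoires of tumor 1 and tumor 2, melanomas grown on opposite flanks of the same mice, were compared. Every tumor sample of the series was taken, 5 of tumor 1 (right flank, implanted on day 0) and 5 of tumor 2 (left flank, implanted on day 3), so 10 of 15 samples entered. The other 5 samples are tumor-draining lymph nodes (TdLN), which by the study's methods lie on the side of tumor 1, and are used only to place the tumor TCRs. All groups came from untreated (control) female C57BL/6 mice, bought at 6 weeks of age. All carried B16F10GP, the mouse melanoma line B16F10 transduced by lentivirus with the LCMV glycoprotein and the fluorescent protein ZsGreen1 and sorted in bulk for high ZsGreen1, so the tumors bear a foreign antigen. Samples of the same number were taken as the same mouse, numbered 1 to 5. The labels do not state this, so each value for clones common to, or missing from, the flanks of a mouse depends on it. CD8+ PD-1+ CD44+ T cells, the antigen-experienced cells, were sorted, and the TCR β chain was sequenced from their genomic DNA. The data hold no expression values, so the sort could not be checked against marker genes.

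Each T cell makes its β chain by joining a V, a D and a J gene segment, with bases trimmed and non-templated (N) bases added at the joints. The junction encodes the CDR3, the loop that contacts the peptide held by the MHC molecule. Daughter cells of 1 T cell carry the same nucleotide rearrangement. A rearrangement listed in tumors on both flanks of a mouse is here counted as a common clone. Separate cells can also make it independently, and tumors of different mice listed many of the same rearrangements. A listing in both tumors therefore need not mark a clone present in both. T cells enter tumors from the blood, so a tumor can be reached by clones primed in any lymph node.

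The values are templates, the assay's estimate of how many genomes carried a rearrangement. A TCR is here a distinct productive nucleotide rearrangement, one that is in frame and has no stop codon. Samples of tumor 1 held 3601 to 6137 productive templates, and those of tumor 2 held 238 to 3975. Tumor 2 of mouse 4 was by far the shallowest, with 50 TCRs, and a TCR missing there may still make up 1.26% of the sample, the share of 3 templates. In the other 4 samples of tumor 2 this limit was 0.0755% to 0.145%, and in tumor 1 it was 0.0489% to 0.0833%. TCRs seen with 1 template made up 48.4% ± 5.02 of the TCRs of tumor 1 and 52.8% ± 7.69 of those of tumor 2 (SD, n = 5). Limits and intervals cover counting error only, and p-values measure the spread between these samples. The permutation tests of tumor 1 against tumor 2 do not use the pairing of tumors by mouse.

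The rearrangements on which the comparison turns are printed 5′ to 3′ as the files list them, each 87 bases long. For each mouse they are the TCR with the highest summed share among those found in both tumors and the largest TCR of each tumor that was missing from the other. The Trbv13-1-Trbj1-1 TCR and the Trbv12-1-Trbj1-3 TCR of mouse 3 were found in the tumors of 4 mice, and the Trbv1-Trbj1-5 TCR of mouse 2 is shown beside that of mouse 5. Capitals mark the bases assigned to the CDR3, the last codon of which lies past the end of the read. They begin with TGT or TGC, codons of cysteine, in each TCR but the Trbv16-Trbj2-7 TCR of mouse 1.
Mouse 1, both tumors, Trbv16-Trbj2-7: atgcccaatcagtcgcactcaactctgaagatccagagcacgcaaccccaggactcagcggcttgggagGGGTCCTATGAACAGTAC
Mouse 1, tumor 1 only, Trbv31-Trbj2-7: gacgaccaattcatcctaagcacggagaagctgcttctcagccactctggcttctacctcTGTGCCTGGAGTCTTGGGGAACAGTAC
Mouse 1, tumor 2 only, Trbv3-Trbj2-1: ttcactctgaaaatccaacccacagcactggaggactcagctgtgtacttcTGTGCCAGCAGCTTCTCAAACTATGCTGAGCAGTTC
Mouse 2, both tumors, Trbv17-Trbj2-7: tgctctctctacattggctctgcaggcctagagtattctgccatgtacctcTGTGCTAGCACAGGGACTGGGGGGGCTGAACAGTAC
Mouse 2, both tumors, Trbv1-Trbj1-5: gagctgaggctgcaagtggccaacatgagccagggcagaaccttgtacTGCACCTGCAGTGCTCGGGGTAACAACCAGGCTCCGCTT
Mouse 2, tumor 1 only, Trbv5-Trbj2-7: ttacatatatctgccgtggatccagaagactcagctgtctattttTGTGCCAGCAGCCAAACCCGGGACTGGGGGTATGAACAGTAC
Mouse 3, both tumors, Trbv12-1-Trbj1-3: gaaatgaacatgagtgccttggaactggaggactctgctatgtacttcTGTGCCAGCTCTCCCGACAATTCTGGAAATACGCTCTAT
Mouse 3, tumor 1 only, Trbv2-Trbj2-1: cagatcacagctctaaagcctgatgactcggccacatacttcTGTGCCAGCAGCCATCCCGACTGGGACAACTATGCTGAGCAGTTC
Mouse 4, both tumors, Trbv13-1-Trbj2-4: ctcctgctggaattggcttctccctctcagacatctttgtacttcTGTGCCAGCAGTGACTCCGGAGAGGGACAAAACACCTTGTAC
Mouse 4, tumor 1 only, Trbv26-Trbj2-7: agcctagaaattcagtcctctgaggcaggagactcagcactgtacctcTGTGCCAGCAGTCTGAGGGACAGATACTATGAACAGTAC
Mouse 4, tumor 2 only, Trbv20-Trbj2-7: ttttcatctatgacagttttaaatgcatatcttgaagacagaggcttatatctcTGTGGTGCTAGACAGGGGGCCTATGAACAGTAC
Mouse 5, both tumors, Trbv14-Trbj2-7: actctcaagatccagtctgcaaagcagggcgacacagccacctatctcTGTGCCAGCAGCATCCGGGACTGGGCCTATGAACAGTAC
Mouse 5, tumor 1 only, Trbv2-Trbj1-4: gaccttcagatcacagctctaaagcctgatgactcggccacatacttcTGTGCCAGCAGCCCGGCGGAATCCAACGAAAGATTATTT
Mouse 5, tumor 2 only, Trbv1-Trbj1-5: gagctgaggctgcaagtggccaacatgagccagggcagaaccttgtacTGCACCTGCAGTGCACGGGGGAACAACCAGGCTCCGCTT
Tumors of 4 mice, Trbv13-1-Trbj1-1: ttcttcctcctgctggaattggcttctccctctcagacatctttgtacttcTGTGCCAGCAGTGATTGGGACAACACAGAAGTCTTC
The largest tumor 2 TCR missing from tumor 1 was the same Trbv3-Trbj2-1 rearrangement in mice 1 and 3. In mouse 2 it was the Trbv16-Trbj2-7 rearrangement that led both tumors of mouse 1. On GRCm38, the V parts of all these TCRs match exon 2 of their V gene in the TCR β locus of chromosome 6. The Trbv16-Trbj2-7 TCR of mouse 1 matches at chr6:41152145-41152205 (V) and chr6:41543811-41543825 (J), both on the plus strand. The Trbv17-Trbj2-7 TCR of mouse 2 matches at chr6:41163489-41163549 and chr6:41543816-41543825, and the Trbv12-1-Trbj1-3 TCR of mouse 3 at chr6:41114005-41114065 and chr6:41534323-41534341. The Trbv13-1-Trbj2-4 TCR of mouse 4 matches at chr6:41116408-41116466 and chr6:41543365-41543379, and the Trbv14-Trbj2-7 TCR of mouse 5 at chr6:41135553-41135611 and chr6:41543812-41543825. Trbv31 of the tumor 1 TCR of mouse 1 is the only V gene among them on the minus strand, with its match at chr6:41557693-41557766.

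Tumors of different mice shared many rearrangements, and the results are therefore given with and without them. Of 2346 productive rearrangements in the tumors, 197 occurred in the tumors of 2 mice, 45 in those of 3 and 2 in those of 4. The shared ones were large. TCRs also listed in a sample with another number held 92.2%, 85.2%, 62.9%, 81.6% and 7.91% of the templates of tumor 1 in mice 1 to 5. In tumor 2 the shares were 93.4%, 88.2%, 93.3%, 76.5% and 11.8%. Only mouse 5 had a low share in both tumors.
The links ran mainly through tumor 2 of mice 1 to 3 and through mouse 4 and tumor 1 of mouse 5. Tumor 2 of mouse 1 had 91.3% of its templates in TCRs that were also in tumor 2 of mouse 2, and tumor 2 of mouse 3 had 92.0% in TCRs that were also in tumor 2 of mouse 1. Tumor 1 of mouse 4 had 80.9% in TCRs also found in tumor 1 of mouse 5. Many links rested on large clones of one tumor that had few templates in another. All 6 TCRs with at least 100 templates in tumor 1 of mouse 1 were found in tumor 2 of mouse 2, at 5.0% to 11.7% of their templates in tumor 1 of mouse 1. All 4 such TCRs of tumor 1 of mouse 2 were found in tumor 2 of mouse 1, at 5.07% to 12.7%. Of the 12 such TCRs of tumor 1 of mouse 4, 11 were found in tumor 1 of mouse 5, at 1.57% to 5.88%. In contrast, all 10 such TCRs of tumor 2 of mouse 3 were in tumor 2 of mouse 1, at 1.99% to 56.7%. How these rearrangements came to be listed in several mice, and whether the same applies between the tumors of a mouse, was not tested.

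**Figure D1:**
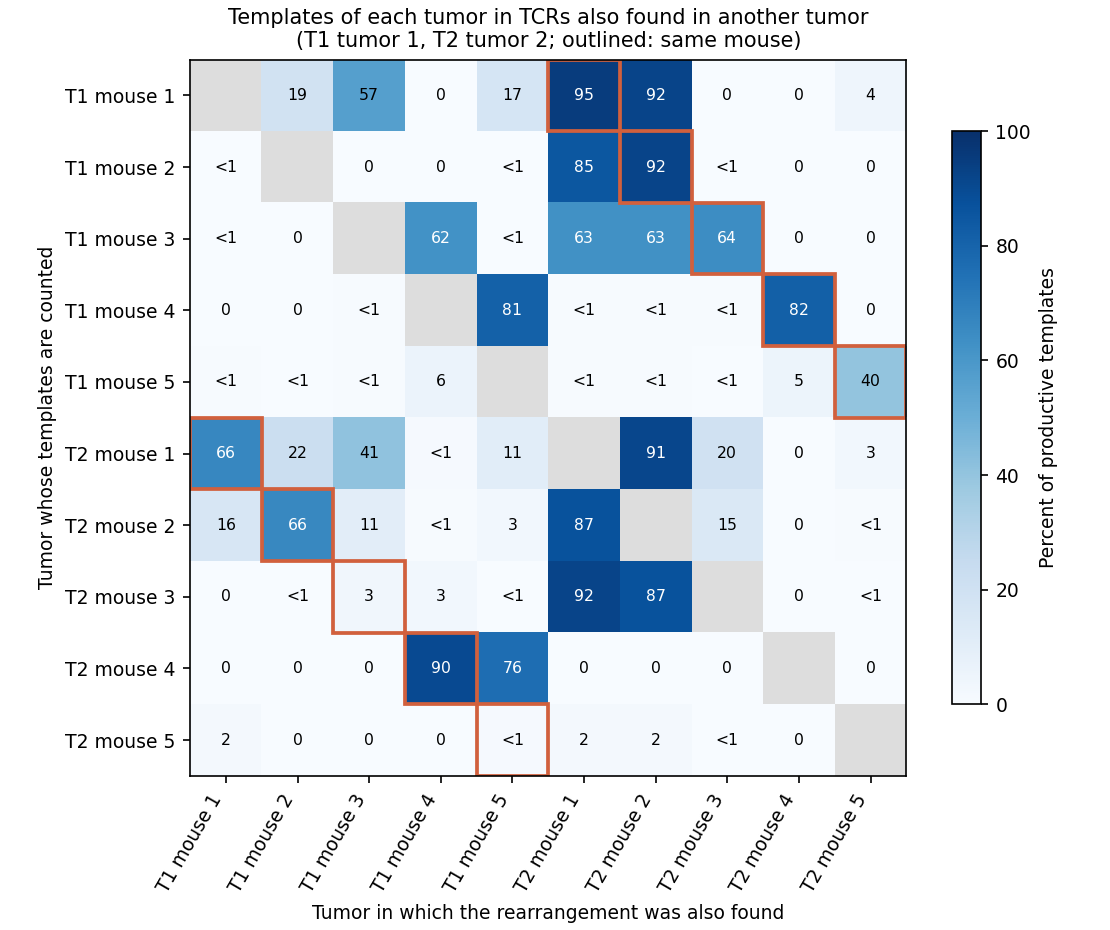
Percent of the productive templates of each tumor (vertical axis) that lie in TCRs also found in another tumor (horizontal axis), from 0 (white) to 100 (dark blue), with the same-mouse pairs outlined. Tumor 2 of mice 1, 2 and 3 are linked across numbers, as are the tumors of mouse 4 with tumor 1 of mouse 5, and at most 1.84% of the templates of tumor 2 of mouse 5 lie in TCRs of any other single tumor.

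Clones common to both flanks were many in mice 1 and 2 and few in mice 3 and 5. Mice 1 to 5 had 93, 129, 6, 35 and 11 TCRs in both tumors, or 274 in all. They were 38.0%, 44.2%, 3.28%, 9.56% and 3.26% of the TCRs of tumor 1 (mean 19.6% ± 19.8, SD, n = 5). In tumor 2 the mean was 27.8% ± 27.9 (SD, n = 5), highest in mouse 4, where 35 of 50 TCRs were also in tumor 1 (70.0%, 95% Wilson interval 56.2% to 80.9%). Without mouse 4 that mean was 17.2%. With both tumors brought to 238 templates, the smallest total, the expected share was 20.5%, 27.9%, 2.40%, 37.9% and 1.59% in mice 1 to 5, so mice 3 and 5 stayed lowest at equal depth.

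By templates, common clones made up most of tumor 1 in every mouse but mouse 5. They held 95.2%, 91.9%, 64.3%, 81.6% and 40.2% of the templates of tumor 1 in mice 1 to 5. In tumor 2 they held 66.4%, 66.1%, 3.24%, 89.9% and 0.919%. The share was lower in tumor 2 in 4 of 5 mice and higher in mouse 4, and the ranges of the groups overlapped. The mean was 74.6% ± 22.7 in tumor 1 and 45.3% ± 40.6 in tumor 2 (SD, n = 5), a difference of -29.3 percentage points, within the spread between mice (p = 0.214 by a two-sided exact permutation test). The smallest p that 5 samples against 5 allow is 0.00794. With the tumors paired by mouse, the exact sign-flip test gave p = 0.125, where the smallest it allows is 0.0625.

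The number of common TCRs fell in mice 1 to 4 once rearrangements found under another number were dropped. Then 55, 68, 4, 18 and 11 common TCRs were left in mice 1 to 5, 156 in all. They held 55.3%, 55.9%, 5.22%, 28.8% and 43.6% of the templates left in tumor 1 and 55.5%, 54.0%, 1.92%, 67.9% and 1.04% of those left in tumor 2. The difference of the means was -1.71 percentage points (exact permutation test, p = 0.873). Dropping left 56 to 1824 templates in a sample of tumor 2, since a large clone is lost when a single template of it is listed under another number. A milder rule, added after the data were seen, kept each such rearrangement only under the number of the sample with its highest share. It kept 99.8% and 99.6% of the templates of tumor 1 in mice 1 and 2, but 72.1% and 68.8% of those of tumor 2. The clones kept thus gain share of tumor 2, so part of a rise there is built in. By that rule common TCRs held 95.3% of tumor 1 and 91.9% of tumor 2 in mouse 1, and 92.0% and 91.5% in mouse 2. Mouse 3 still had 64.5% against 3.28%, and mouse 5 had 42.9% against 0.935%.

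**Figure D2:**
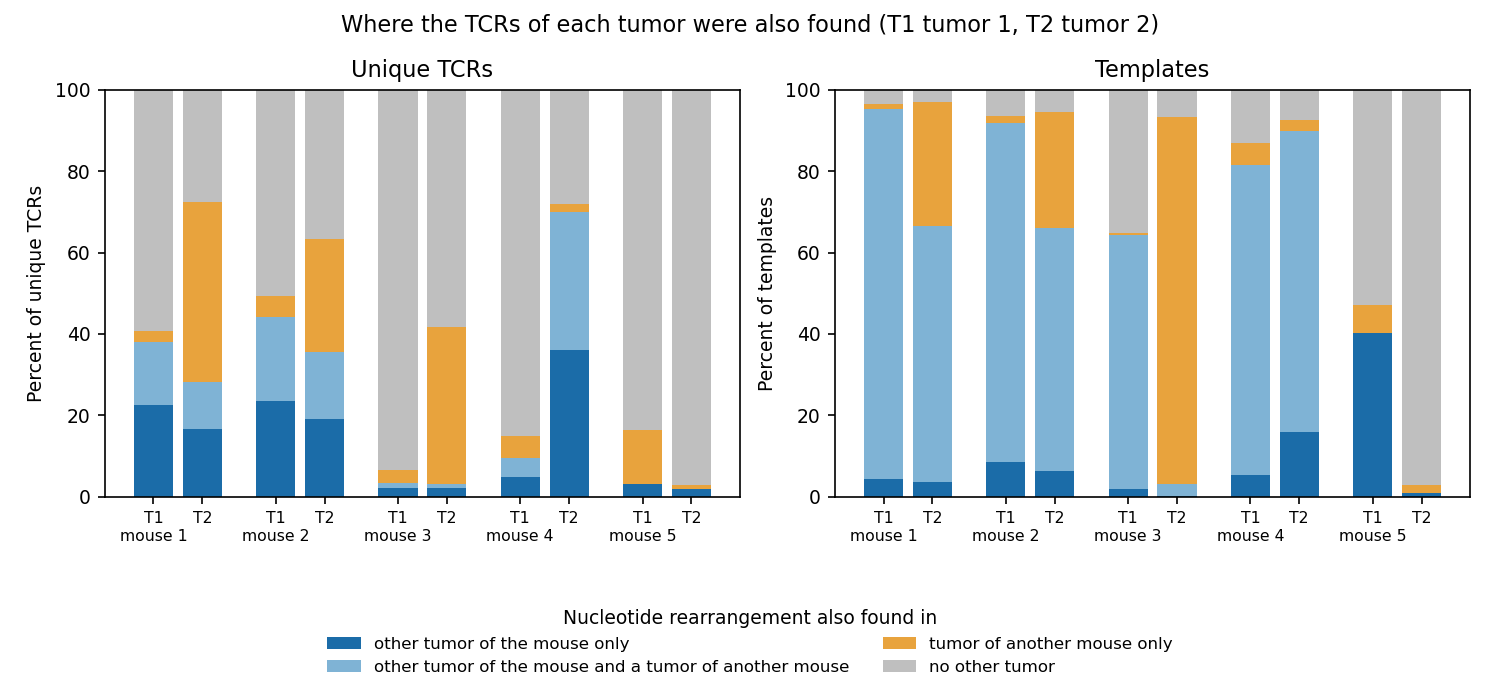
Percent of the unique TCRs (left) and of the productive templates (right) of each tumor by where the same rearrangement was also found, with tumor 1 (T1) and tumor 2 (T2) of each mouse side by side and 1 bar per sample. In tumor 2 of mouse 3, 90.1% of templates were in TCRs found in a tumor of another mouse and not in tumor 1, and in tumor 2 of mouse 5, 97.1% were in TCRs found in no other tumor.

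The 3 leading common clones kept their order on both flanks in mouse 1. The Trbv16-Trbj2-7 TCR ranked the first in both tumors, with 2948 of 6137 templates in tumor 1 (48.0%) and 1335 of 3975 in tumor 2 (33.6%). A Trbv3-Trbj2-1 TCR ranked the second in both, with 1035 and 422 templates (16.9% and 10.6%), and a Trbv5-Trbj2-7 TCR the third in both, with 520 and 230 (8.47% and 5.79%). All 3 held a smaller share of tumor 2 than of tumor 1, by 1.43- to 1.59-fold. When each rearrangement was kept only under the number of its highest share, the log2 ratio of shares (tumor 2 over tumor 1) of these 3 moved from -0.52, -0.67 and -0.55 to -0.05, -0.20 and -0.08. Their own templates were unchanged, and the ratios moved because the total left in tumor 2 was smaller. In mouse 2 the 2 largest clones changed places. A Trbv1-Trbj1-5 TCR led tumor 1 with 1158 of 4201 templates (27.6%) and had 498 of 3364 in tumor 2 (14.8%), and the Trbv17-Trbj2-7 TCR led tumor 2 with 707 (21.0%) and had 1032 in tumor 1 (24.6%). The latter had a log2 ratio of -0.23 (95% interval -0.37 to -0.09, exact binomial), which turned to 0.31 under the highest-share rule. Here too the templates of the TCR were unchanged and the total left in tumor 2 was smaller. The Trbv5-Trbj2-3 TCR had 335 and 125 templates and ranked the third and the fifth.

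In mouse 3 a single clone carried the overlap. The Trbv12-1-Trbj1-3 TCR had 2476 of 3974 templates in tumor 1 (62.3%) and 118 of 3855 in tumor 2 (3.06%), where it ranked 8, a share 20.4-fold lower. It also had 38 templates in tumor 2 of mouse 1, 25 in tumor 2 of mouse 2 and 31 in tumor 1 of mouse 4. The next common clones of mouse 3, Trbv16-Trbj2-7 and Trbv14-Trbj1-1, had 54 and 19 templates in tumor 1 and 2 and 1 in tumor 2. In mouse 4 all 10 of the largest TCRs of tumor 1 were found in tumor 2, in part at other shares. The largest of tumor 1, a Trbv13-1-Trbj1-2 TCR, had 538 templates there (10.1%) and 13 in tumor 2 (5.46%). The Trbv13-1-Trbj2-4 TCR, the second of tumor 1 and the first of tumor 2, had 515 of 5305 templates (9.71%) and 48 of 238 (20.2%), the Trbv17-Trbj2-4 TCR had 480 and 36, and the Trbv16-Trbj2-7 TCR had 385 and 20. Their log2 ratios were 1.05 (95% interval 0.60 to 1.48), 0.74 (0.21 to 1.23) and 0.21 (-0.52 to 0.86). The same 3 TCRs had 24, 21 and 18 templates in tumor 1 of mouse 5.

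By fold, mouse 5 showed the widest gap for its leading common clone, and its common clones were found under no other number. The Trbv14-Trbj2-7 TCR led tumor 1 with 679 of 3601 templates (18.9%) and had 1 of 2068 in tumor 2 (0.0484%). A Trbv3-Trbj2-1 TCR had 225 and 2 templates, and a Trbv5-Trbj1-4 TCR had 216 and 5. All 11 common TCRs of mouse 5 held a higher share of tumor 1. Over the 5 mice, 143 of the 274 common TCRs held a higher share of tumor 1 and 131 of tumor 2, and in mouse 4 these were 9 and 26. With rearrangements found under another number dropped, the totals were 63 and 93. For TCRs with few templates the direction depends on the totals of the samples. Before dropping, 19, 19 and 3 common TCRs of mice 1, 2 and 4 had 1 template in both tumors. All of these count as higher in tumor 2, the shallower sample, so such totals cannot show a direction across clones. A minimum of 10 templates in either tumor left 109 common TCRs, a number that favours clones high in the deeper tumor, mostly tumor 1. As a description of these, 56 differed in share by at most 2-fold, 44 were more than 2-fold higher in tumor 1 and 9 in tumor 2. Those within 2-fold were 17 of 31, 30 of 47, 0 of 3, 9 of 19 and 0 of 9 in mice 1 to 5. Among common TCRs, the Spearman correlation of templates in the 2 tumors was 0.770, 0.794, 0.656, 0.649 and 0.222 for the 93, 129, 6, 35 and 11 TCRs of mice 1 to 5. These values run across clones of the same pair of samples and describe those samples only.

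**Figure D3:**
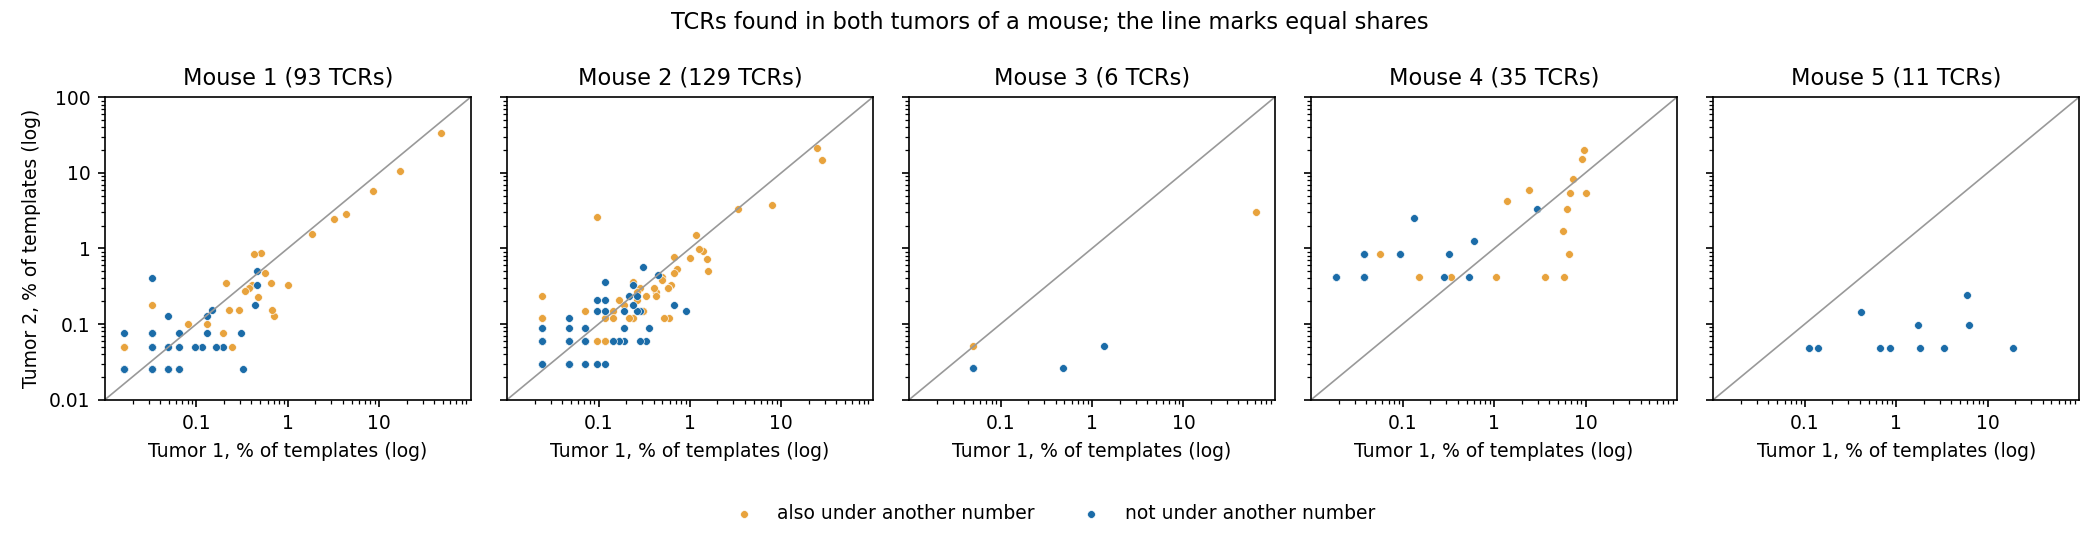
Share of productive templates of each TCR found in both tumors of a mouse, in tumor 1 (horizontal) and tumor 2 (vertical), both on log axes in percent, 1 point per TCR, with orange for TCRs also listed under another number. The line marks equal shares. In mice 1 and 2, 17 of 31 and 30 of 47 TCRs with at least 10 templates in either tumor lie within 2-fold. Most others of these lie below the line, as do all 11 points of mouse 5.

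A clone's size in one tumor went with its being found in the other. Common TCRs of tumor 1 had on average 62.8, 29.9, 426, 124 and 132 templates in mice 1 to 5, against 1.93, 2.08, 8.02, 2.95 and 6.61 for those found in tumor 1 only. In tumor 2 the means of common TCRs were 28.4, 17.2, 20.8, 6.11 and 1.73, against 5.61, 4.89, 19.8, 1.60 and 3.78, so that mouse 5 went the other way and mouse 3 was nearly level. Of the TCRs with 1 template in tumor 1, 16.7%, 23.4% and 1.56% were found in tumor 2 in mice 1, 2 and 4, against 0 of 78 in mouse 3 and 0 of 165 in mouse 5, which allow up to 3.85% and 1.82%. Of those with at least 100 templates, 6 of 6, 4 of 4, 1 of 3, 12 of 12 and 4 of 7 were found. With rearrangements found under another number dropped, those of 10 to 99 templates in tumor 1 were found in 7 of 7, 12 of 14, 2 of 28, 4 of 12 and 5 of 34 cases. From the side of tumor 2 the large clones were found less regularly, at 4 of 5, 4 of 6, 1 of 10 and 0 of 2 in mice 1, 2, 3 and 5, and tumor 2 of mouse 4 had no clone of that size. Of the 10 largest TCRs of tumor 2, 5, 6, 1, 9 and 0 were in tumor 1, whereas 9, 10, 2, 10 and 5 of the 10 largest of tumor 1 were in tumor 2.

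Clones of a single flank differed in size between the tumors. The largest TCRs of tumor 1 missing from tumor 2 were small in mice 1, 2 and 4, where Trbv31-Trbj2-7, Trbv5-Trbj2-7 and Trbv26-Trbj2-7 TCRs had 44, 21 and 44 templates (0.717%, 0.50% and 0.829%). In mouse 3 a Trbv2-Trbj2-1 TCR had 247 templates (6.22%) and in mouse 5 a Trbv2-Trbj1-4 TCR had 281 (7.80%), shares at least 79.9-fold and 53.8-fold above the limit in tumor 2. In mice 1, 2, 3 and 5 those of tumor 2 had more templates, but in mice 1 to 3 they were rearrangements also listed under another number. Those of tumor 1 in mice 1 and 2 were also listed under another number, with 3 and 2 templates. With all such rearrangements dropped, the largest had 3, 6, 20, 3 and 529 templates in tumor 2 of mice 1 to 5, against 9, 14, 247, 44 and 281 in tumor 1. Tumor 2 then had the one with more templates only in mouse 5. In mouse 4 the totals left were 56 templates in tumor 2 and 977 in tumor 1. The Trbv3-Trbj2-1 TCR led tumor 2 of mouse 3 with 891 templates (23.1%), at least 306-fold above the limit in tumor 1, and had 182 templates in tumor 2 of mouse 1 (4.58%) and 128 in tumor 2 of mouse 2. The Trbv16-Trbj2-7 TCR that led mouse 1 had 298 templates in tumor 2 of mouse 2 (8.86%) and 0 in its tumor 1. In mouse 5 the Trbv1-Trbj1-5 TCR led tumor 2 with 529 templates (25.6%), at least 307-fold above the limit in tumor 1, and was listed in no other sample. In mouse 4 the largest was a Trbv20-Trbj2-7 TCR with 6 templates.

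TCRs of tumor 2 that were missing from tumor 1 were seldom found in the TdLN. In mice 1 to 5, 71.0%, 65.9%, 50%, 25.7% and 81.8% of the TCRs common to both tumors were also in the TdLN of the mouse. Of the TCRs found in tumor 1 only, 30.3%, 11.7%, 49.2%, 9.97% and 21.5% were in it. Of those found in tumor 2 only, the shares were 3.78%, 3.86%, 0% (0 of 188, which allows up to 1.60%), 6.67% and 3.87%. The order common, tumor 1 only, tumor 2 only held in 5 of 5 mice. In mouse 3 it rested on 3 of 6 common TCRs against 87 of 177 of tumor 1 only, nearly the same share. After dropping rearrangements found under another number it held in 4 of 5, the exception being mouse 3, where 1 of 4 common TCRs was in the TdLN (25%) against 48.8% of those of tumor 1 only. In mouse 4 the order rested on 1 of 15 TCRs of tumor 2 only. After dropping it rested on 1 of 14 (7.14%), against 26 of 307 of tumor 1 only (8.47%). Before dropping, common TCRs had more templates on average in tumor 1 than those of tumor 1 only in 5 of 5 mice. Between the single flanks, still before dropping, size did not follow the order in mice 1 to 3. There TCRs of tumor 2 only averaged 5.61, 4.89 and 19.8 templates, against 1.93, 2.08 and 8.02 for those of tumor 1 only. In mice 4 and 5 they averaged 1.60 and 3.78 against 2.95 and 6.61. After dropping, TCRs of tumor 2 only averaged 1.34, 1.41, 2.28, 1.29 and 3.54 templates in mice 1 to 5. Those of tumor 1 only then averaged 1.52, 1.86, 8.22, 2.27 and 6.75, more in each mouse. The part of clone size was not tested.

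Tumor 1 was on average the more clonal tumor, a difference that came from 3 mice and lay within the spread between mice. Simpson clonality was taken as the root of the sum of squared template shares and reaches 1 when all templates belong to the same clone. In mice 1 to 5 it was 0.520, 0.382, 0.629, 0.237 and 0.245 in tumor 1 and 0.366, 0.284, 0.290, 0.295 and 0.275 in tumor 2. It was lower in tumor 2 in mice 1 to 3 and higher in mice 4 and 5, and the groups overlapped. The difference of means was -0.101 (two-sided exact permutation test, p = 0.286), and without mouse 3 it was -0.0408. The sample names of mice 1 to 3 are written in another style than those of mice 4 and 5, which may mark batches. The within-mouse difference averaged -0.197 ± 0.126 (SD, n = 3) in mice 1 to 3 and 0.0442 ± 0.0195 (SD, n = 2) in mice 4 and 5.
The gap in clonality in mice 1 and 2 was smaller under both rules for the rearrangements shared between mice. With these dropped, clonality was 0.137, 0.120, 0.241, 0.184 and 0.265 in tumor 1 and 0.137, 0.107, 0.160, 0.233 and 0.309 in tumor 2 (difference of means -0.00060, exact permutation p = 0.992). Dropping removed 92.2% and 93.4% of the templates of tumor 1 and tumor 2 in mouse 1, and 85.2% and 88.2% in mouse 2. It left no TCR of at least 100 templates in these tumors, so low values in both are built in. Kept under the number of the highest share only, the shared rearrangements left 0.521 and 0.499 in mouse 1 and 0.383 in both tumors of mouse 2, whereas mouse 3 stayed at 0.632 and 0.293. In mice 1 and 2 this rule removed templates mainly from tumor 2, so part of the rise there is built in. The 10 largest TCRs held 74.0% ± 10.4 of the templates of tumor 1 and 64.9% ± 8.69 of those of tumor 2 (SD, n = 5; exact permutation p = 0.175).

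**Figure D4:**
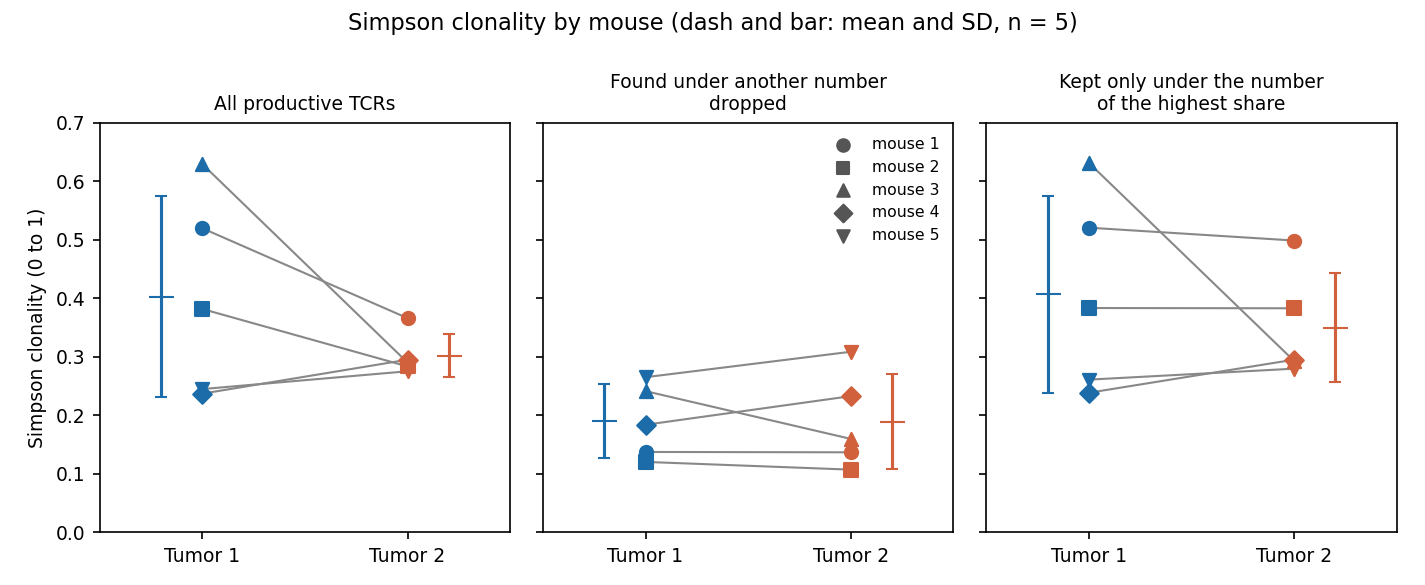
Simpson clonality (0 to 1) of tumor 1 and tumor 2, with 1 symbol and line per mouse and the mean and SD of 5 mice beside them, for all productive TCRs (left), with rearrangements found under another number dropped (middle) and with these kept only under the number of their highest share (right). The lines of mice 1 and 2 fall in the left panel and are nearly level in the others, and that of mouse 3 falls in each.

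V gene usage did not separate the tumors. Shares were taken over unique TCRs, so that an expanded clone counts as 1. The 20 V genes tested averaged 1% or more. The exact permutation test with Benjamini-Hochberg adjustment called 0 of them (0%) at an adjusted p under 0.05, and the unadjusted p of 2 was under 0.05. By this test 1 V gene alone cannot fall under an adjusted p of 0.159. The edgeR quasi-likelihood test on the numbers of unique TCRs also called 0 of 20 (0 with an unadjusted p under 0.05, 1 with the mouse as a block), and DESeq2 called 0 (0 unadjusted). Trbv19 (chr6:41178375-41179048), the most used V gene of both tumors, had the largest difference. It made up 10.2%, 12%, 9.34%, 12.6% and 10.4% of the TCRs of tumor 1 in mice 1 to 5 and 12.4%, 12.2%, 19.6%, 20% and 9.22% of those of tumor 2. It was higher in tumor 2 in 4 of 5 mice, by 3.77 percentage points on average (p = 0.190 by the exact permutation test, adjusted p = 0.600), mainly in mice 3 and 4. With rearrangements found under another number dropped, the difference was 1.71 percentage points.
Trbv13-3 (chr6:41130147-41130585) was higher in tumor 2 in 5 of 5 mice, at 5.71%, 4.79%, 2.75%, 4.37% and 3.87% in tumor 1 and 6.04%, 6.35%, 6.19%, 8.0% and 4.70% in tumor 2 (exact permutation p = 0.0238, adjusted p = 0.476). Trbv1 (chr6:40891229-40891885) averaged 4.15% ± 1.67 in tumor 1 and 5.97% ± 1.97 in tumor 2 (SD, n = 5; exact permutation p = 0.143, adjusted p = 0.600). Trbv14, named after its values were seen, went the other way in 5 of 5 mice, with a mean of 4.14% ± 1.32 in tumor 1 and 2.44% ± 0.947 in tumor 2 (SD, n = 5; p = 0.0476 by the exact permutation test, adjusted p = 0.476). Shares of templates followed the leading clones of each mouse. Trbv16 held 49.8% of tumor 1 and 35.4% of tumor 2 of mouse 1, Trbv12-1 held 63.5% and 3.48% in mouse 3, and Trbv1 held 1.11% and 28.0% in mouse 5. By templates 0 of 18 V genes were called and 1 had an unadjusted p under 0.05. That gene, Trbv15, averaged 0.377% ± 0.210 in tumor 1 and 1.75% ± 1.58 in tumor 2 (SD, n = 5; p = 0.00794 by the exact permutation test, adjusted p = 0.143) and was likewise named after its values were seen.

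J gene usage gave no call either. The exact permutation test called 0 of 12 J genes (0%), and 0 were under 0.05 unadjusted. By templates the counts were also 0 and 0. edgeR and DESeq2 called 0, with Trbj2-1 the 1 gene with an unadjusted p under 0.05 by edgeR, with or without the mouse as a block. Trbj2-1 (chr6:41542754-41542803) was 13.5%, 12.3%, 6.59%, 10.1% and 13.1% of the TCRs of tumor 1 and 15.4%, 15.7%, 18.6%, 10% and 13.9% of those of tumor 2. It was higher in tumor 2 in 4 of 5 mice (exact permutation p = 0.0952, adjusted p = 0.508), with the widest gap in mouse 3. With rearrangements found under another number dropped, its difference was 4.97 percentage points (exact permutation p = 0.0397, adjusted p = 0.238). Trbj1-1 (chr6:41533864-41533911) averaged 12.1% ± 2.23 against 9.79% ± 1.84, and Trbj2-3 (chr6:41543223-41543271) 6.98% ± 1.73 against 4.89% ± 1.94 (SD, n = 5), each lower in tumor 2 in 4 of 5 mice. The difference in Trbj1-1, -2.29 percentage points, turned to 1.11 by share of templates and to 0.27 with non-productive rearrangements included. Their adjusted p was 0.508 each (exact permutation).

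**Figure D5:**
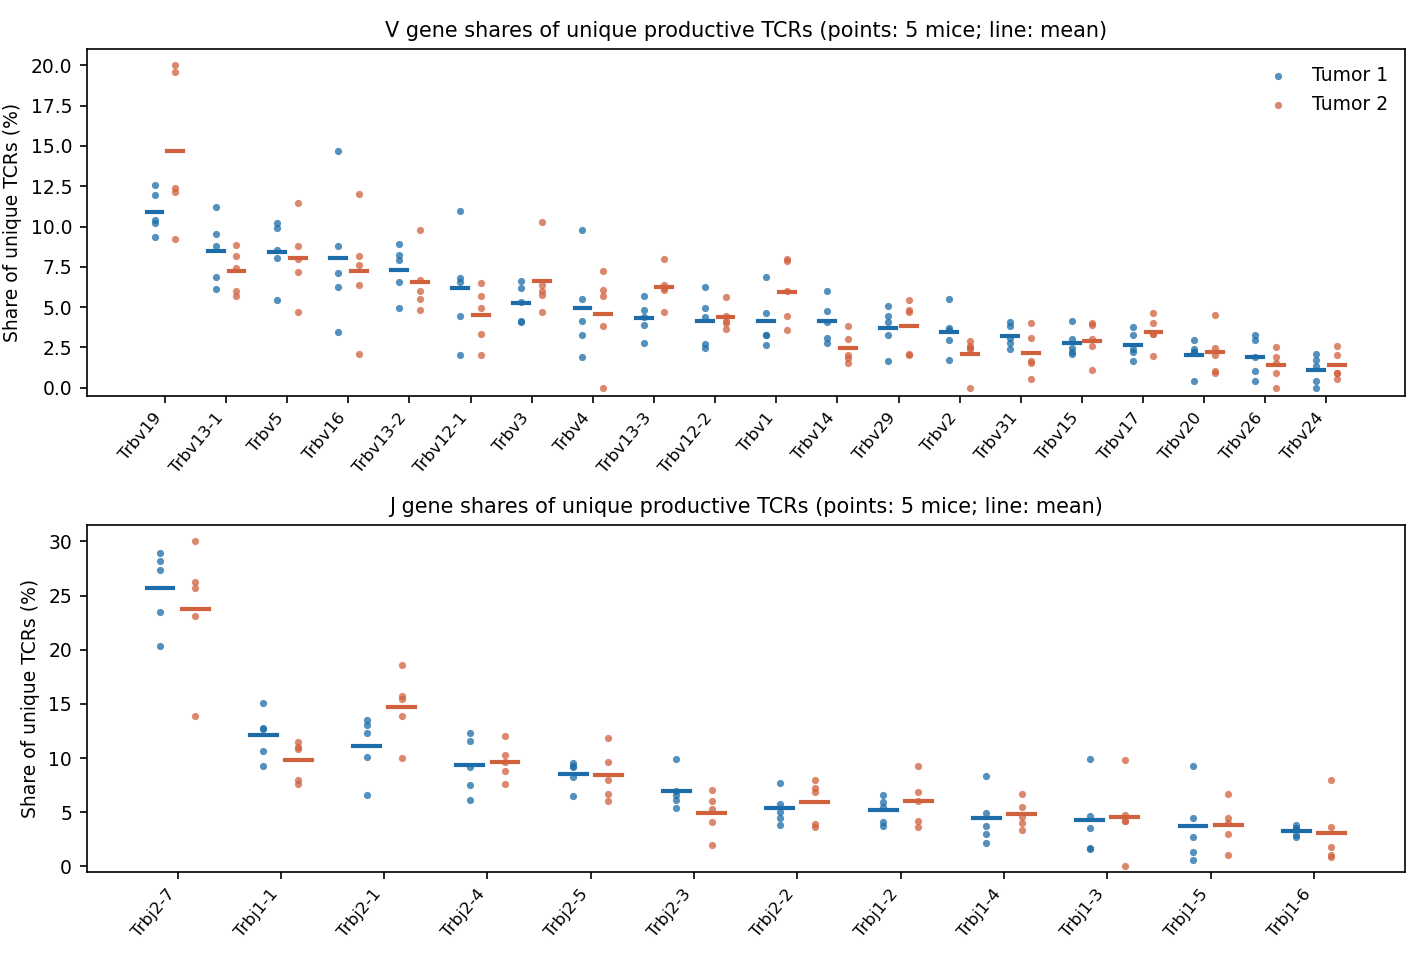
Share of unique productive TCRs (percent) by V gene (top) and J gene (bottom), ordered by the mean of tumor 1, with 1 point per mouse, blue for tumor 1 and orange for tumor 2, and lines for the means of 5 mice. Points of the tumors overlap for every gene, and Trbv19 and Trbj2-1 have the largest differences of means.

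CDR3 length was alike on both flanks. The mean over unique TCRs was 13.4, 14, 14.1, 13.8 and 13.8 amino acids in tumor 1 of mice 1 to 5 and 13.7, 13.8, 13.9, 13.5 and 13.9 in tumor 2, and the median was 14 in every sample. The difference of means was -0.08 amino acids (exact permutation test, p = 0.571), and -0.17 with rearrangements found under another number dropped (p = 0.341, exact permutation test). Weighted by templates, mouse 1 stood apart at 10.5 in tumor 1 and 11.4 in tumor 2, against 13.1 to 14.2 in the other 8 tumors. Its leading Trbv16-Trbj2-7 TCR is listed with a CDR3 of 7 amino acids, which lacks the cysteine codon that begins the other printed CDR3s. Its V match ends at chr6:41152205, before the end of Trbv16 at chr6:41152230. Whether it makes a working receptor was not tested. CDR3s of 7 amino acids made up 16 TCRs with 48.3% of the templates in tumor 1 of mouse 1, 11 TCRs with 33.9% in tumor 2 of mouse 1 and 8 TCRs with 9.13% in tumor 2 of mouse 2. In these samples the largest TCR of that length had 2948 of 2966, 1335 of 1346 and 298 of 307 of the templates. CDR3s of 7 amino acids had 8 templates in tumor 1 of mouse 3 and 0 in the other 6 tumors.
The mean number of N bases was lower in clones of both flanks. TCRs common to the tumors had on average 3.31, 4.03, 3.50, 3.26 and 3.36 N bases in mice 1 to 5, and those of tumor 1 only had 4.41, 4.96, 4.20, 3.95 and 3.78, more in 5 of 5 mice. Those of tumor 2 only had 3.9, 3.96, 4.14, 5.27 and 3.50, more in 4 of 5. With rearrangements found under another number dropped, common TCRs had fewer N bases than either set in 5 of 5 mice. The share of TCRs with no N base was, however, not higher among common TCRs. It averaged 6.11%, against 8.36% in tumor 1 only and 9.32% in tumor 2 only. It was lower in common TCRs in 4 of 5 and 5 of 5 mice, and in 3 of 5 each with rearrangements found under another number dropped. No test was run on these values.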

How the data were processed

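CD8+ PD-1+ CD44+ T cells were sorted and the immunoSEQ TCR β assay was run on their genomic DNA and processed by the provider. The deposited counts are whole-number templates per 87-base rearrangement, 1 file per sample, and were taken as they are, with no normalization. A fraction of the sample total, also deposited for each rearrangement, was left out. The submitters' processing notes name mm10, and software versions are not given in the sources used here. V and J names (33 and 14) were all matched to GENCODE M21 symbols, and 2 productive tumor rearrangements without a V gene were left out of V gene shares. Shares, overlaps and exact permutation tests were computed with Python 3.11.15, numpy 2.4.6, pandas 2.3.3 and scipy 1.17.1, and tested on simulated data. edgeR 4.0.16 and DESeq2 1.42.0 (R 4.3.3) on numbers of unique TCRs per gene, with totals of unique TCRs as library sizes in edgeR, were alternatives. TCRs named are, per mouse, the 3 common ones with the highest summed share and the largest of each single tumor, and the 3 that occur in tumors of the highest number of mice. V and J genes named are those called, or else the 3 that differ most. Members, lists and tests were chosen with earlier results of these data known. The highest-share rule and the split by sample name style were added after the data were seen.

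The study describes TdLN and tumor samples as paired, and no source used here states that a number marks a mouse. Of the non-productive rearrangements of tumor 2, 26.9% ± 26.0 (SD, n = 5) were in tumor 1 of the same number and 2.96% on average in tumor 1 of another. The same-number share was 32.7%, 36.9% and 62.3% in mice 1, 2 and 4 but 2.02% in mouse 3 and 0.475% in mouse 5, and tumor 2 of mouse 4 had 26.4% in tumor 1 of mouse 5.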

Additional observations from a re-analysis of the deposited data

Results flagged for a closer look

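Among 31 groups of 5 samples examined for a far value, 1 was found, where chance flags about 1 in 20. The Simpson clonality of tumor 2 of mouse 1 was 0.366, against 0.275 to 0.295 in the other 4 samples of tumor 2, and its gap to the nearest was 0.782 of the whole range. Under the highest-share rule the same sample had 0.499, and the others 0.28 to 0.383.

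The difference in Simpson clonality between tumor 2 and tumor 1 was above 0 in mice 4 and 5 and below 0 in mice 1 to 3. It was 0.241 higher on average in mice 4 and 5 (two-sided exact permutation p = 0.2). Another split of the mice into 2 and 3 gave a difference at least as large.

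Non-productive rearrangements, which the comparisons leave out, were common to the flanks as well, but few were in mice 3 and 5 (2.02% and 0.475% of those of tumor 2). On average 26.9% of those of tumor 2 were found in tumor 1 of the same mouse (0.475% to 62.3%). In tumor 1 of another mouse the average was 2.96% (0% to 26.4%).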

How the results depend on the processing

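The exact permutation tests gave no call, and no alternative gave one. The Simpson clonality difference stayed below 0 in all 17 alternatives except mice 4 and 5 alone, and ranged from -0.140 to -0.0408 with 1 mouse left out. As 1 minus normalized Shannon entropy it was -0.136 (exact permutation p = 0.0794). With the mouse as a replicate block (exact sign-flip test, which cannot go below 0.0625) p was 0.25 for clonality, 0.125 for the template share of common TCRs and 0.562 for CDR3 length. The difference in that template share was -38.7 to -21.4 percentage points with 1 mouse left out and -1.71 with rearrangements found under another number dropped. The share of tumor 2 TCRs found in tumor 1 was 17.2% to 34.2% with 1 mouse left out, 18.1% at equal depth and 26.4% without small near-copies. The CDR3 length difference was -0.18 to -0.005 amino acids with 1 mouse left out and 0 for medians. V and J gene calls stayed at 0 in all 16 alternatives each, edgeR with and without the replicate block included. Of 78 recomputed log2 share ratios of the 15 named common TCRs, 67 stayed within the 95% counting interval of the value given, 10 moved beyond it and 1 reversed, that of Trbv17-Trbj2-7 in mouse 2, to 0.31 under the highest-share rule. That rule left the templates of this TCR unchanged and lowered the total of tumor 2, which raised its share there. The depth of tumor 2 of mouse 4, 238 templates, limits what can be said of clones missing there.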

Other observations

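The same CDR3 led tumors of different mice through different nucleotide sequences. The Trbv1-Trbj1-5 TCR that led tumor 2 of mouse 5 and the one that led tumor 1 of mouse 2 differ at 2 of 87 bases and encode the same 14 amino acids. All rearrangements with this V gene, J gene and CDR3 together held 27.8% of the templates of tumor 1 of mouse 2 (11 rearrangements), 14.9% of tumor 2 of mouse 2 (4), 26.2% of tumor 2 of mouse 5 (13) and 2.31% of tumor 2 of mouse 1 (3). None was listed in the other 6 tumors, and among the TdLNs only that of mouse 2 had it, at 3.50%. The small rearrangements beside each leading one had 1 to 12 templates in all per sample. Whether they were separate rearrangements or near-copies of the leading one was not tested. Trbv3-Trbj2-1 TCRs with a CDR3 of 13 amino acids also recurred. The second clone of mouse 1 and the tumor 2 clone of mice 1 and 3 differ at 2 bases and 1 amino acid, and the second common clone of mouse 5 differs from the former at 3 bases and 1 amino acid.

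Of 1921 combinations of CDR3, V and J gene in the tumors, 244 occurred in the tumors of several mice, 18 of them through different nucleotide rearrangements only. Between the flanks of the same mouse, 13 of 258 common combinations were common through different rearrangements only, 7 of them in mouse 5, and they held 67 templates in tumor 1 and 117 in tumor 2. Most of these templates were in mouse 3, where 1 combination had 45 and 82. The Trbv13-1-Trbj1-1 TCR was listed in the tumors of 4 mice with 1 to 15 templates a sample.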
